A study of Mus musculus with 9 samples.

Results

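The IL-6 family of cytokines and the route from its receptors to Stat3 were followed in MLP29 cells by 10 genes, the ligands Il6 and Lif, the receptor chains Il6ra, Il6st, Osmr and Lifr, the kinase Jak1, the transcription factor Stat3, and the Stat3 targets Socs3 and Pim1. Each probe set whose annotation names one of these genes and no other was taken, which gave 24 of the 22626 probe sets analysed, for 10 of 12393 genes. The 10 genes had been chosen with the values of these arrays known, so their differences between conditions are given as a description, without a test. MLP29 is a line of mouse hepatic progenitor cells. All cells were starved in 0.1% serum for at least 16 h and fall into 3 conditions. Antibody-treated cells received 10 µg/ml of clone BMB5, which blocks the function of α5β1 integrin, the fibronectin receptor. HGF/SF1-treated cells received 20 ng/ml of the ligand of the receptor Met, and control cells were left untreated. Treatments lasted 24 h. Each of 3 experiments had each condition once, and the 9 RNA samples were measured on 1 Affymetrix Mouse430A_2 array each, so 3 arrays per condition limit the precision of every value. MLP29 is 1 cell line. No array is labelled as an isotype or other antibody control, and blocking the integrin cannot here be told apart from adding an immunoglobulin.

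Most cytokines of the IL-6 family signal through receptor complexes that share the chain Il6st, also called gp130. Il6 binds Il6ra before it engages Il6st, Lif binds Lifr with Il6st, and oncostatin M in the mouse binds Osmr with Il6st. Kinases bound to the receptors, Jak1 foremost, phosphorylate Stat3, which enters the nucleus and switches on its targets. Socs3 binds Il6st and Jak kinases and shuts the signal down, and Pim1 is a serine/threonine kinase that favours survival and growth. In the liver this route is known for the acute-phase response of hepatocytes and for regeneration. The arrays measured RNA only, and neither secreted cytokine nor phosphorylated Stat3 was measured.

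The promoters of Il6, Lif and Socs3 are shown because these are the ligands and the feedback inhibitor among the genes that had the highest values in antibody-treated cells. They are the 250 bases before the start of a RefSeq transcript on GRCm38.p6, written 5′ to 3′ on the strand of the gene. Where a gene has several such windows, as Lifr and Pim1 do, all were searched. Capitals mark every match on either strand to TTCNNNGAA (STAT), TGANTCA (AP-1), TTGCNNAA (C/EBP), the NF-kappaB letters (GGG and CC with 5 bases between them) or TGACGTCA (CRE), and matches that overlap run together. The Il6 window is chr5:30012864-30013113 (plus strand), the Lif window chr11:4257318-4257567 (plus strand) and the Socs3 window chr11:117969367-117969616 (minus strand). The Socs3 window lies inside the gene as annotated (117966079 to 117970336), so the start it precedes is not the outermost one.
Il6: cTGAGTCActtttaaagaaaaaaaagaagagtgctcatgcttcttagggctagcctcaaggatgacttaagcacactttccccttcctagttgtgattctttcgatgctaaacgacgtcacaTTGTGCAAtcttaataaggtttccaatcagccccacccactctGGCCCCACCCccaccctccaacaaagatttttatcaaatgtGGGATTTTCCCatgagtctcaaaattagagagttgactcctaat
Lif: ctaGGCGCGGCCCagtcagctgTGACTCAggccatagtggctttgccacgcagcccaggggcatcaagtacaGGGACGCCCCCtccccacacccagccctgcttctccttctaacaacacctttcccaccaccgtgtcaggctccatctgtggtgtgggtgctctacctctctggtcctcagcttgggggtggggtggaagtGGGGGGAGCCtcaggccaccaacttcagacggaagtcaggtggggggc
Socs3: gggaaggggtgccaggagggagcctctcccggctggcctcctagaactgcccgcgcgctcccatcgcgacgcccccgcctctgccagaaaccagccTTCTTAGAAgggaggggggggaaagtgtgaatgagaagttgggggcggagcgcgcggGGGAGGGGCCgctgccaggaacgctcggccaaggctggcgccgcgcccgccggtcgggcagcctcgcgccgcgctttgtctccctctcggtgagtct
Of the 10 genes, only Socs3 has the STAT motif in this window, TTCTTAGAA from base -154 to -146, counted back from the start, a motif held by 7.02% of 32851 promoter windows of the same length. The AP-1 motif stands at bases -249 to -243 of Il6 and -228 to -222 of Lif and is in 6.75% of all windows. Il6 also has the C/EBP motif at -128 to -121 (9.56% of windows). The NF-kappaB letters were found in 8 of the 10 genes and in 45.8% of all windows, and the windows of Il6st and Stat3 have none of the 5 motifs. A match of letters is a description of the sequence and was not tied to any value on the arrays.

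The 9 arrays had medians between 5.91 and 6.08 on the log2 scale of the deposited values. Of the progenitor and biliary list, the keratins Krt8, Krt18 and Krt19 had values from 12.9 to 14.1 on every array, and Cd24a from 12.4 to 12.7. Krt7 had 6.26 to 7.03 and Sox9 4.61 to 6.44. Epcam did not exceed 4.60, below the median of every array, and the hepatocyte gene Alb did not exceed 4.34. The mean over 7 progenitor and biliary genes was 9.93 to 10.2 in antibody-treated, 9.81 to 10.0 in HGF/SF1-treated and 9.92 to 10.1 in untreated cells. The antibody array of experiment 1 stood apart: without it, 1088 probe sets differed between antibody-treated and untreated cells at an adjusted p under 0.05 in limma (Benjamini-Hochberg over 22626 probe sets), against 5 with it. In a whole culture, fewer cells of a type and less RNA per cell cannot be told apart. The experiments are numbered in the order in which their samples are listed.

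**Figure D1:**
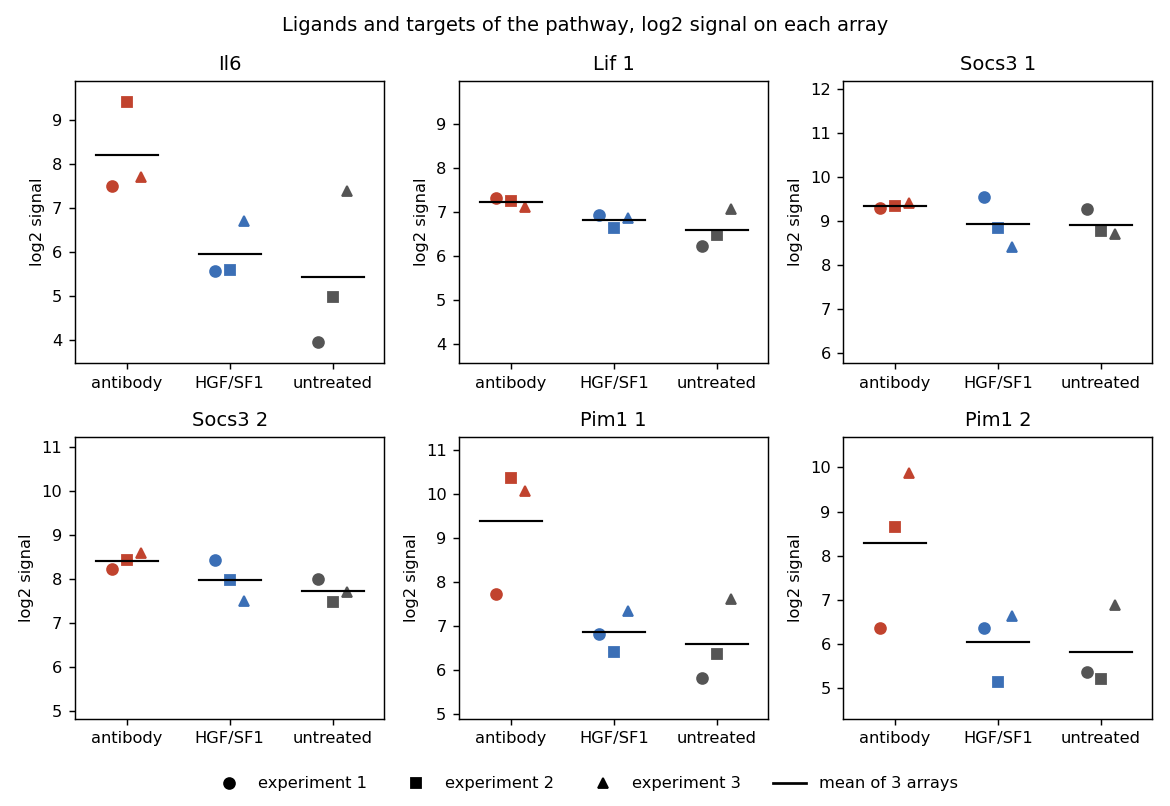
Log2 signal of Il6, the brighter Lif probe set (Lif 1), 2 probe sets of Socs3 and both of Pim1 on each of 9 arrays, marked by experiment, where the bar is the mean of the 3 arrays; each panel spans 6.4 log2 units. All 3 antibody arrays lie above the 3 untreated arrays in every panel but that of Pim1 2, and untreated Il6 reaches 7.37 in experiment 3.

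Il6, the cytokine that gives the family its name, had log2 values of 7.49, 9.41 and 7.70 in antibody-treated cells of experiments 1, 2 and 3. They were 5.56, 5.59 and 6.71 in HGF/SF1-treated cells and 3.95, 4.98 and 7.37 in untreated cells. All 3 antibody arrays were above all untreated and all HGF/SF1 arrays, but in experiment 3 the untreated value came close to the treated one. The means were 8.20 ± 1.05 after the antibody, 5.95 ± 0.65 after HGF/SF1 and 5.43 ± 1.76 untreated (SD, n = 3 each). The log2 difference was 2.77 (SE 0.86) between antibody-treated and untreated cells, or 6.80-fold, and 0.52 (SE 0.86) between HGF/SF1-treated and untreated cells. The untreated values of experiments 1 and 2 lay below the medians of their arrays, 5.98 and 5.97. Without detection calls they cannot be told from background, which limits what the fold means. Within the experiments, antibody minus untreated was 3.54, 4.43 and 0.32. The 3 untreated arrays spanned 3.43, a range wider than that of 99.9% of all probe sets. Without the untreated array of experiment 3 the difference was 3.74 (SE 0.65). Without all of experiment 2 it was 1.93 (SE 1.13) and without experiment 1 it was 2.38 (SE 0.97), and in both cases it no longer passed an unadjusted p under 0.05 in limma. The gene of Il6, on chromosome 5 at 30013114 to 30019975 of GRCm38.p6, is represented by a single probe set (1450297_at).

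Lif, which acts through Lifr and Il6st, has 2 probe sets on the array. The brighter one (1421207_at) had log2 values of 7.32, 7.25 and 7.12 in antibody-treated cells, 6.93, 6.64 and 6.86 in HGF/SF1-treated cells and 6.22, 6.49 and 7.06 in untreated cells. The antibody arrays were above all others, by 0.06 over the untreated array in experiment 3. Antibody minus untreated was 0.64 (SE 0.20), with 1.10, 0.76 and 0.06 in the experiments, and HGF/SF1 minus untreated was 0.22 (SE 0.20). As for Il6, the highest untreated value of Lif was that of experiment 3. Without experiment 1 the difference between antibody-treated and untreated cells was 0.41 (SE 0.22) and without experiment 2 it was 0.58 (SE 0.30), neither past the unadjusted threshold, and without experiment 3 it was 0.93 (SE 0.17). The dimmer probe set (1450160_at) read between 3.61 and 4.72 on the 9 arrays, and its antibody and untreated values overlapped, with a difference of 0.06 (SE 0.22).

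Among the receptor chains, Osmr differed more between experiments than between conditions. Its brighter probe set (1418674_at) had log2 values of 7.25, 7.05 and 6.77 in antibody-treated cells, 5.48, 6.48 and 7.64 in HGF/SF1-treated cells and 5.28, 6.72 and 8.35 in untreated cells. The untreated and HGF/SF1 arrays were lowest in experiment 1 and highest in experiment 3, while the antibody arrays lay between 6.77 and 7.25. Antibody minus untreated was 1.97, 0.34 and -1.59 in the 3 experiments, with a mean of 0.24 (SE 0.76). The second probe set (1418675_at) gave 1.56, -0.15 and -1.20, but lay below the array median on all but the untreated array of experiment 3 (6.15). The brighter one lay below the median on the untreated and HGF/SF1 arrays of experiment 1. The untreated range of the brighter probe set was 3.08, wider than that of 99.9% of all probe sets. HGF/SF1 minus untreated was -0.25 (SE 0.76) for the brighter and -0.05 (SE 0.60) for the dimmer probe set.

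Il6st, the chain that most members of the family share, has 3 probe sets. The brightest (1452843_at) had log2 values of 6.63, 7.35 and 7.14 in antibody-treated cells, 6.76, 7.03 and 7.35 in HGF/SF1-treated cells and 6.65, 7.13 and 7.73 in untreated cells. The conditions overlapped, and the differences from untreated cells were -0.13 (SE 0.30) after the antibody and -0.12 (SE 0.30) after HGF/SF1. The probe set 1460295_s_at, which is shared among transcripts, gave -0.47 (SE 0.37) after the antibody and -0.70 (SE 0.37) after HGF/SF1. It was lower than in untreated cells in 3 of 3 experiments after either treatment, and its highest value, 6.13, was the untreated array of experiment 3. On all other arrays it lay between 4.02 and 5.13, below their medians. The third probe set (1421239_at) gave 0.05 (SE 0.24) and -0.05 (SE 0.24) and lay between 4.65 and 5.55, below the median of every array. Il6ra, the chain that binds Il6, had 5.13, 4.99 and 4.72 in antibody-treated, 6.02, 5.15 and 4.81 in HGF/SF1-treated and 5.45, 4.91 and 5.17 in untreated cells by its brighter probe set, with a difference of -0.23 (SE 0.29) after the antibody and 0.15 (SE 0.29) after HGF/SF1. Its other probe set lay between 4.53 and 4.77 on all arrays. The 3 probe sets of Lifr, the receptor chain for Lif, had values between 2.99 and 3.93 on every array, below the median of each array, and differences between 0.02 and 0.04 after the antibody. At such values a receptor RNA cannot be told from background here, since the deposited table has no detection call.

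**Figure D2:**
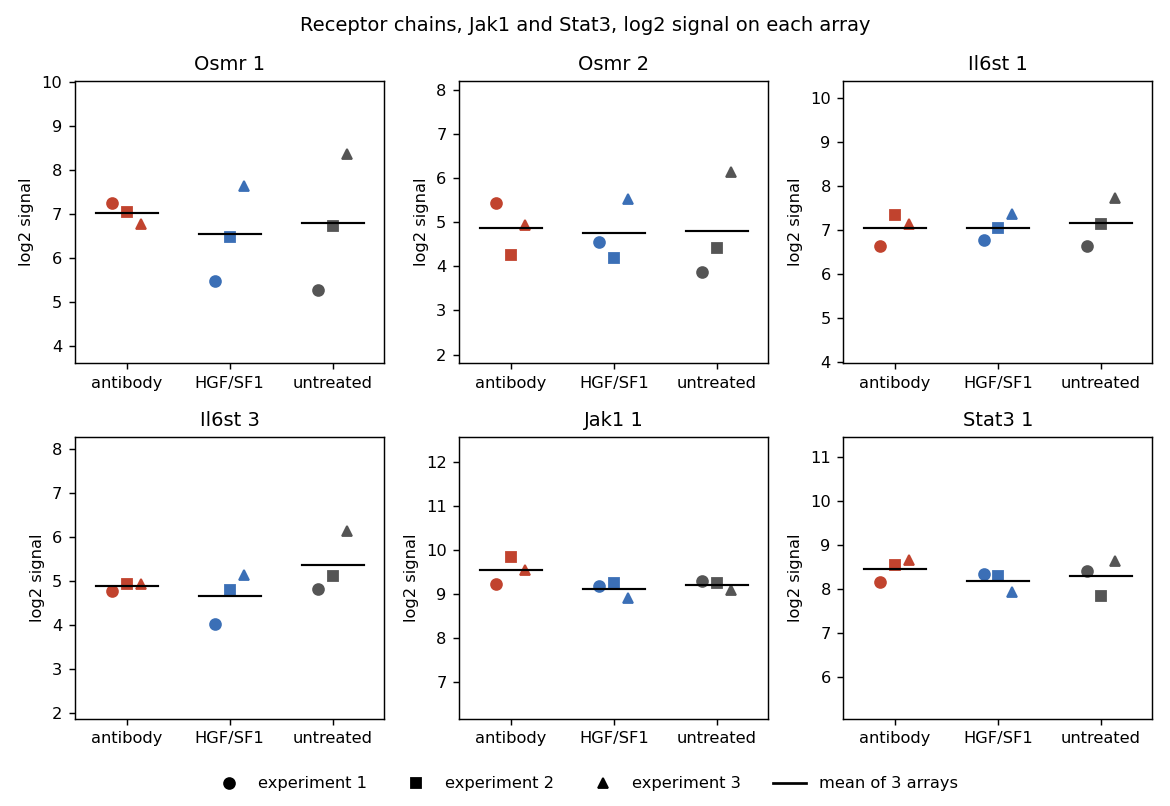
Log2 signal of both Osmr probe sets, 2 probe sets of Il6st, and the brightest of Jak1 and of Stat3 on each of 9 arrays, marked by experiment, where the bar is the mean of the 3 arrays. Osmr 1 lies between 6.77 and 7.25 after the antibody, between 5.48 and 7.64 after HGF/SF1 and between 5.28 and 8.35 in untreated cells.

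Jak1, the kinase that phosphorylates Il6st and Stat3, had log2 values of 9.24, 9.85 and 9.56 in antibody-treated cells by its brightest probe set (1433805_at), 9.18, 9.25 and 8.91 in HGF/SF1-treated cells and 9.29, 9.26 and 9.10 in untreated cells. The antibody array was higher than the untreated one in experiments 2 and 3 and differed by -0.06 in experiment 1. Its 3 probe sets differed in the same direction, with antibody minus untreated at 0.33 (SE 0.17), 0.31 (SE 0.15) and 0.40 (SE 0.40). The second probe set (1433803_at) was higher in 3 of 3 experiments, at 0.19, 0.14 and 0.60. HGF/SF1 minus untreated was -0.11 (SE 0.17), -0.11 (SE 0.15) and -0.34 (SE 0.40). Antibody minus HGF/SF1 was therefore larger than antibody minus untreated, at 0.43, 0.42 and 0.73.

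Stat3 itself differed little between the conditions. The brightest of its 3 probe sets (1426587_a_at) had log2 values of 8.14, 8.54 and 8.66 in antibody-treated cells, 8.33, 8.29 and 7.93 in HGF/SF1-treated cells and 8.41, 7.85 and 8.62 in untreated cells, and the 3 conditions overlapped. Antibody minus untreated was 0.16 (SE 0.23), 0.08 (SE 0.10) and 0.17 (SE 0.12) for the 3 probe sets, and HGF/SF1 minus untreated was -0.11 (SE 0.23), 0.03 (SE 0.10) and -0.01 (SE 0.12). The second probe set (1460700_at) kept within 7.83 to 8.14 on all 9 arrays.

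Socs3, the feedback inhibitor of Il6st, has 3 probe sets, of which those ending in _x_at may also bind other transcripts. The brightest (1455899_x_at) had log2 values of 9.28, 9.33 and 9.41 in antibody-treated cells, 9.55, 8.84 and 8.40 in HGF/SF1-treated cells and 9.27, 8.76 and 8.69 in untreated cells. The antibody arrays were above the untreated arrays, by 0.01 in experiment 1, whereas HGF/SF1 gave the highest value of all 9 in experiment 1 and the lowest in experiment 3. A second one (1456212_x_at) had 8.23, 8.43 and 8.58 after the antibody, 8.43, 7.98 and 7.51 after HGF/SF1 and 8.01, 7.49 and 7.70 untreated. Antibody minus untreated was 0.43 (SE 0.28) and 0.68 (SE 0.24) for these and 0.27 (SE 0.28) for the third (1416576_at), which overlapped and is the only one without the _x_at ending. HGF/SF1 minus untreated was 0.02, 0.24 and 0.11, with SE between 0.24 and 0.28. For 1456212_x_at the difference no longer passed the unadjusted threshold without the antibody array of experiment 3 (0.60, SE 0.27), the untreated array of experiment 2 (0.56, SE 0.26), experiment 2 (0.55, SE 0.34) or experiment 3 (0.58, SE 0.25).

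Pim1 showed differences as large as those of Il6, and by both of its probe sets. The brighter (1435458_at) had log2 values of 7.72, 10.37 and 10.06 in antibody-treated cells, 6.82, 6.41 and 7.35 in HGF/SF1-treated cells and 5.83, 6.36 and 7.61 in untreated cells. All antibody arrays were above all others, and the antibody array of experiment 1 was the lowest of its condition. Antibody minus untreated was 2.78 (SE 0.71), or 6.88-fold, with 1.88, 4.01 and 2.45 in the experiments, and HGF/SF1 minus untreated was 0.26 (SE 0.71). The untreated value of experiment 1 lay below the median of its array, 5.98. The second probe set (1423006_at) had 6.36, 8.66 and 9.87 after the antibody, 6.36, 5.13 and 6.63 after HGF/SF1 and 5.37, 5.19 and 6.88 untreated. It overlapped with the other conditions through experiment 1, and antibody minus untreated was 2.48 (SE 0.87). Its untreated values of experiments 1 and 2 and its HGF/SF1 value of experiment 2 lay below the medians of their arrays. Without detection calls, values below the median cannot be told from background, which limits what the fold means. Without the antibody array of experiment 1 the differences were 3.61 (SE 0.50) and 3.45 (SE 0.65). Both probe sets then passed an adjusted p under 0.05 in limma, beside 1088 of all 22626 probe sets. Without experiment 2 they were 2.17 (SE 0.93) and 1.99 (SE 1.19) and neither passed the unadjusted threshold. The second probe set also lost its place past that threshold without the antibody array of experiment 2 (2.30, SE 1.03) or 3 (1.70, SE 0.80), or the untreated array of experiment 1 (2.26, SE 1.02) or 2 (2.17, SE 1.00).

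**Figure D3:**
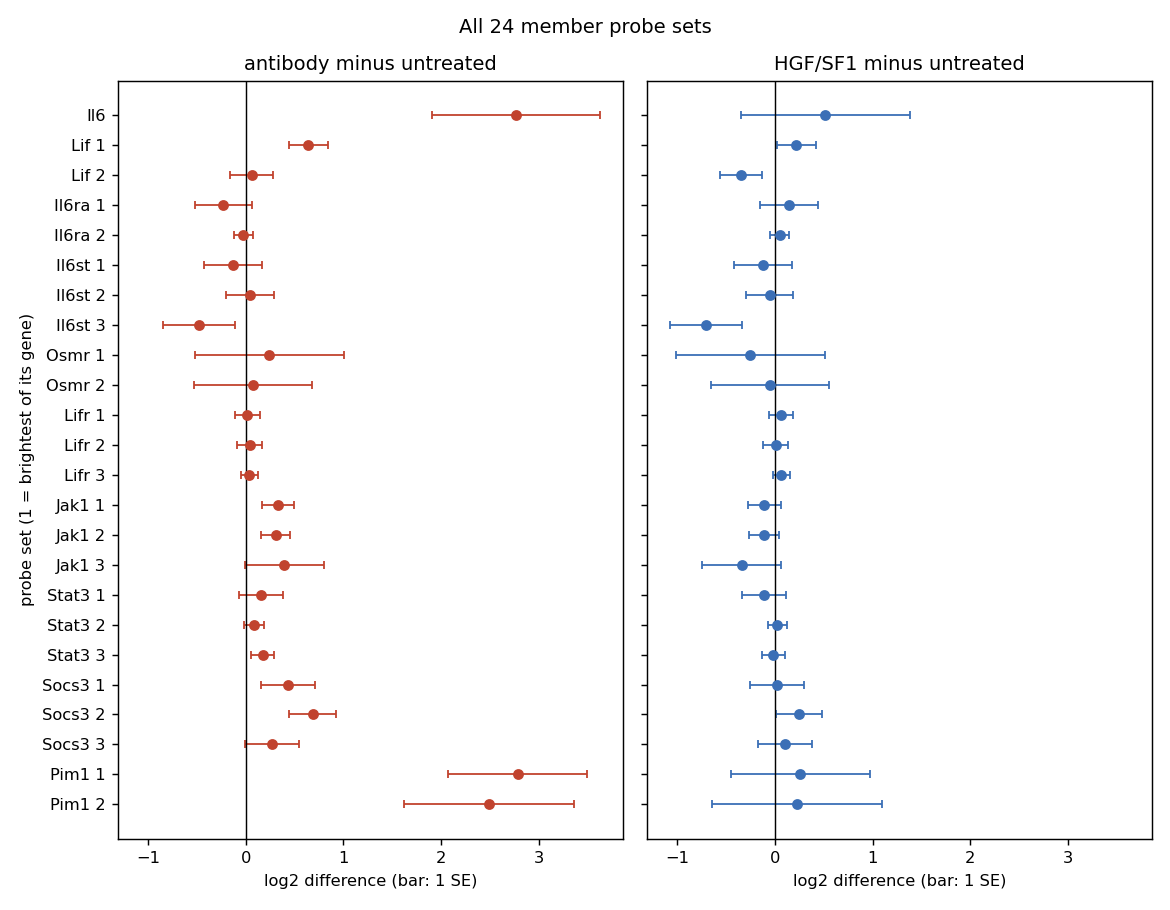
Log2 difference from untreated cells after the antibody (left) and after HGF/SF1 (right) for all 24 probe sets, numbered within a gene from the brightest, with bars of 1 SE from limma. Il6 and the 2 probe sets of Pim1 have differences between 2.48 and 2.78 after the antibody, and after HGF/SF1 no difference is above 0.52.

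Over all 24 probe sets, antibody minus untreated was above 0 for 20, with a median of 0.17 against 0.00 for all probe sets. At an unadjusted p under 0.05 in limma, 5 probe sets of 4 genes (Il6, Lif, Socs3 and both of Pim1) were higher and 0 lower, which is 20.8%, beside 11.8% of all 22626 probe sets (4.53% higher and 7.29% lower). Of all the calls 38.3% were higher, and 50.1% once each array was centred on its median. The members were chosen on the same contrast, so nothing is read from this. At an adjusted p under 0.05, 0 of the 24 passed, beside 0.0221% of all. Without the antibody array of experiment 1, 7 of the 24 passed the unadjusted threshold, beside 4014 of all 22626 probe sets. Without experiment 2, 0 did, beside 912, against 2674 of all with every array kept. With the experiment entered as a block 5 passed, beside 18.2% of all. In 5 probe sets the 3 antibody arrays were all above the 3 untreated arrays (5.8% of all probe sets), in 8 the antibody array was higher in 3 of 3 experiments (18.2% of all), and in 1 it was lower in 3 of 3 (18.6%). For HGF/SF1 against untreated cells, 0 of 24 passed the unadjusted threshold, beside 0.849% of all, and the median difference was 0.02. The HGF/SF1 array was higher in 3 of 3 experiments for 1 probe set (11.2% of all) and lower for 4 (10.7% of all). When the model also held the experiment, 2 passed, both lower after HGF/SF1, the dim Lif probe set at -0.34 (SE 0.12) and 1460295_s_at of Il6st at -0.70 (SE 0.24), beside 1.82% of all probe sets. Both lay below the median of each array, except this Il6st probe set on the untreated array of experiment 3. Between antibody and HGF/SF1, 5 were higher (Il6, 2 of Jak1 and both of Pim1) and 0 lower, beside 13.2% of all (5.2% higher), with a median of 0.25. In 4 the antibody arrays were all above the HGF/SF1 arrays (5.7% of all), and in 7 they were higher in 3 of 3 experiments (16.5%). The number past the unadjusted threshold was 0 without experiment 2, beside 1257 of all probe sets, against 2978 with every array kept. It was 2 without the antibody array of experiment 2 (1814 of all) or 3 (2347), or the HGF/SF1 array of experiment 2 (2618). When the model held the experiment it was 7, beside 19.8% of all, with the dimmest Jak1 probe set (0.73, SE 0.19) and the dim Lif probe set (0.40, SE 0.12) added. The comparisons share arrays, the untreated ones in the first 2 and the antibody or HGF/SF1 ones with the third, so they are not independent of each other.

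**Figure D4:**
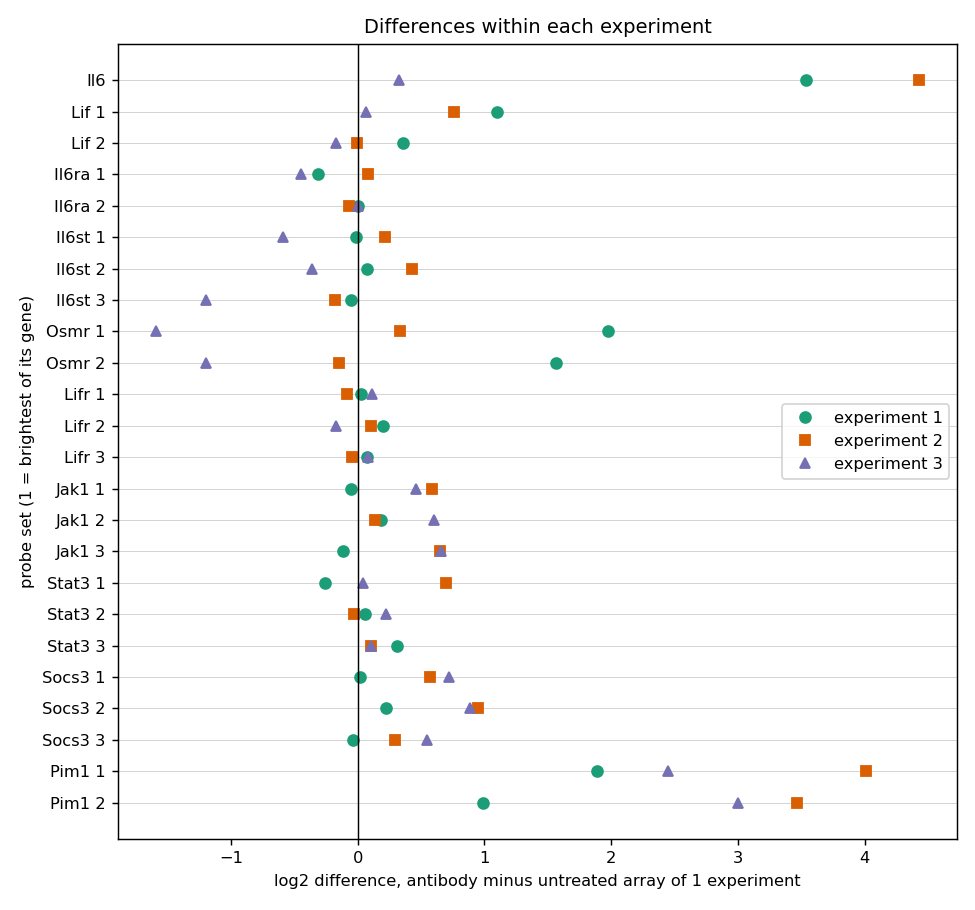
Log2 difference between the antibody and the untreated array of the same experiment for all 24 probe sets, numbered within a gene from the brightest, with a marker per experiment. Osmr runs from 1.97 in experiment 1 to -1.59 in experiment 3, and Il6 from 4.43 in experiment 2 to 0.32 in experiment 3.

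The untreated array of experiment 3 was the highest of the 3 untreated arrays in 13 of the 24 probe sets (54.2%), beside 33.0% of all probe sets. In 9 (37.5%) experiment 3 was highest among both the untreated and the HGF/SF1 arrays, beside 17.7% of all. These 9 were Il6, all 3 probe sets of Il6st, both of Osmr, both of Pim1 and 1 of Lifr, and none was of Jak1, Stat3 or Socs3. What differed between the experiments is not given in the labels and was not tested.

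The genes whose brightest probe set followed that of Il6 most closely over the 9 arrays were Gja1 (connexin 43, a gap junction protein), with a Pearson r of 0.96, Tcim (0.95), Il1f6, an interleukin-1 family cytokine (0.95), Pak1ip1 (0.94) and Ptbp2, a splicing regulator (0.94). Among the members, Pim1 had r = 0.90 and Lif r = 0.90 with Il6, Osmr 0.63, Jak1 0.51, Il6st 0.49, Stat3 0.41, Socs3 0.12, Il6ra -0.43 and Lifr -0.46. For Stat3 the closest were Rbfox2, a splicing regulator (0.93), Gca (0.92), the Wnt receptor Fzd3 (0.91), Prpf39 (0.91) and Fam50b (0.89), and Gca, Fzd3 and Fam50b ranged over less than 0.3 on the log2 scale. The correlations are over 9 arrays that share conditions and experiments, and they describe these arrays only.

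A list of 78 further genes of the pathway was compared in the same way, and 69 have a probe set of their own. The values given are those of the brightest probe set, their p-values come from limma, and the list had been written with earlier results known. At an unadjusted p under 0.05, 7 of them had higher and 5 had lower values after the antibody, which is 17.4%, beside 12.6% of the 12393 genes measured (4.68% higher and 7.92% lower). Their median difference was -0.02, against 0.00 over all genes. At an adjusted p under 0.05, 0 of the 69 passed, beside 0.0403% of genes, and the lowest adjusted p in limma was 0.157. When the model held the experiment, 17 passed the unadjusted threshold, beside 18.5% of genes. After HGF/SF1, 0 of the 69 passed the unadjusted threshold, beside 0.839% of genes, and with the experiment as a block 1 did, Cp (ceruloplasmin), lower at -0.53, beside 1.66% of genes.

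The other ligands did not pass. Clcf1, a cytokine that acts through Cntfr, Lifr and Il6st, had 6.50, 7.14 and 7.28 in antibody-treated, 6.06, 6.57 and 6.94 in HGF/SF1-treated and 5.71, 6.64 and 6.94 in untreated cells. It was higher after the antibody than untreated in each experiment, with a difference of 0.54 (SE 0.36, unadjusted p = 0.167 in limma, and 0.00275 with the experiment as a block, where the adjusted p was 0.0927). Ctf1 (cardiotrophin 1) had -0.24 (SE 0.20), and Il11 and Ebi3, a subunit of the cytokine IL-27, had values between 3.47 and 4.46 on all arrays. Of the 5 other receptors and shedding proteases, 0 passed, beside 12.6% of all genes measured. Adam10 and Adam17, proteases that release Il6ra from the cell surface, had 0.24 (SE 0.24) and -0.16 (SE 0.15), and Cntfr, the receptor chain for Clcf1 and ciliary neurotrophic factor, had -0.16 (SE 0.14).

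Of 8 other kinases, STATs and adaptors, 2 were lower after the antibody, beside 7.92% of all genes measured. Tyk2, a Jak family kinase, had 6.57, 6.19 and 6.38 in antibody-treated, 6.98, 6.82 and 6.92 in HGF/SF1-treated and 7.01, 6.99 and 6.93 in untreated cells. The antibody arrays lay below all others, with a difference from untreated cells of -0.60 (SE 0.11, unadjusted p = 0.000667 and adjusted p = 0.162 in limma). Stat6, which serves IL-4 signaling, had 9.12, 9.11 and 9.01 after the antibody, 10.12, 9.52 and 9.58 after HGF/SF1 and 9.51, 9.82 and 9.52 untreated, a difference of -0.54 (SE 0.17, unadjusted p = 0.0130, adjusted p = 0.275 in limma), which did not pass without the untreated array of experiment 2 (-0.43), experiment 2 (-0.45) or experiment 3 (-0.55). Jak2 had -0.15 (SE 0.13) and the adaptor Grb2 0.10 (SE 0.12), and neither passed.

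Of 14 other inhibitors, 4 were higher after the antibody, namely Cish, Pias4, Ptpn2 and Socs7, and 0 lower. Of all genes measured, 4.68% were higher and 7.92% lower. When the model held the experiment, 4 inhibitors were higher and 1 lower, beside 18.5% of genes in either direction. Cish, a relative of Socs3, had 6.21, 6.88 and 6.99 in antibody-treated, 6.04, 6.19 and 5.90 in HGF/SF1-treated and 5.71, 6.30 and 5.93 in untreated cells. Its difference from untreated cells was 0.71 (SE 0.23, unadjusted p = 0.0135, adjusted p = 0.279 in limma). It did not pass without the antibody array of experiment 3 (0.56), the untreated array of experiment 1 (0.58) or experiment 3 (0.54). Pias4, a SUMO ligase that restrains STATs, differed by 0.57 (SE 0.17, unadjusted p = 0.00828, adjusted p = 0.243) in limma, with all antibody arrays above all untreated ones, and did not pass without experiment 2 (0.46) or 3 (0.51). The phosphatase Ptpn2 differed by 0.42 (SE 0.12, unadjusted p = 0.00832, adjusted p = 0.243), but only 2 of its 4 probe sets were higher, and as the mean of its probe sets it had 0.07 and did not pass, nor did it without experiment 2 (0.30). Socs7, named after its value was seen, differed by 0.51 (SE 0.18) and did not pass without the antibody array of experiment 2 (0.40) or 3 (0.41), the untreated array of experiment 2 (0.47), or experiment 2 (0.36) or 3 (0.47). Socs1, another inhibitor of Jak kinases, had 0.12 (SE 0.13).

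Of 18 growth and survival targets, 3 were higher and 2 lower after the antibody, beside 4.68% higher and 7.92% lower of all genes measured. Pim3, a kinase of the same family as Pim1, had 10.62, 10.65 and 10.81 in antibody-treated, 9.57, 9.61 and 10.19 in HGF/SF1-treated and 9.68, 9.58 and 9.91 in untreated cells. The antibody arrays were above all others, its 3 probe sets were all higher, and the difference from untreated cells was 0.97 (SE 0.18, unadjusted p = 0.000484, adjusted p = 0.157 in limma, and adjusted p = 0.0576 with the experiment as a block). Pim2, the third kinase of the family, had -0.16 (SE 0.20). Cebpb, a transcription factor of the acute-phase response, and Vegfa, an angiogenic factor, both named after their values were seen, were higher by 0.87 (SE 0.35) and 0.46 (SE 0.17). Cebpb did not pass under 7 of the alternatives, with differences of 0.60 to 0.99, among them those without the antibody array of experiment 2 or 3, the untreated array of experiment 1 or 2, or experiment 1 or 2. Vegfa did not pass under 6, with 0.28 to 0.64, among them those without the antibody array of experiment 2 or 3, the untreated array of experiment 2, or experiment 2 or 3. Icam1, an adhesion molecule, had 7.72, 5.21 and 5.16 in antibody-treated, 7.77, 7.89 and 7.74 in HGF/SF1-treated and 7.74, 8.08 and 7.75 in untreated cells. It was low in experiments 2 and 3 only, and in experiment 1 the antibody and untreated arrays differed by -0.02. Its difference was -1.83 (SE 0.60, unadjusted p = 0.0145, adjusted p = 0.286 in limma), and it did not pass without the antibody array of experiment 2 (-1.42) or 3 (-1.39), or without experiment 2 (-1.31) or 3 (-1.44). Il4ra, the receptor for IL-4, had -0.86 (SE 0.26, unadjusted p = 0.00990, adjusted p = 0.257 in limma), and did not pass without experiment 2 (-0.56) or 3 (-0.83). Birc5 (survivin) had 0.36 (SE 0.42) against untreated cells.

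**Figure D5:**
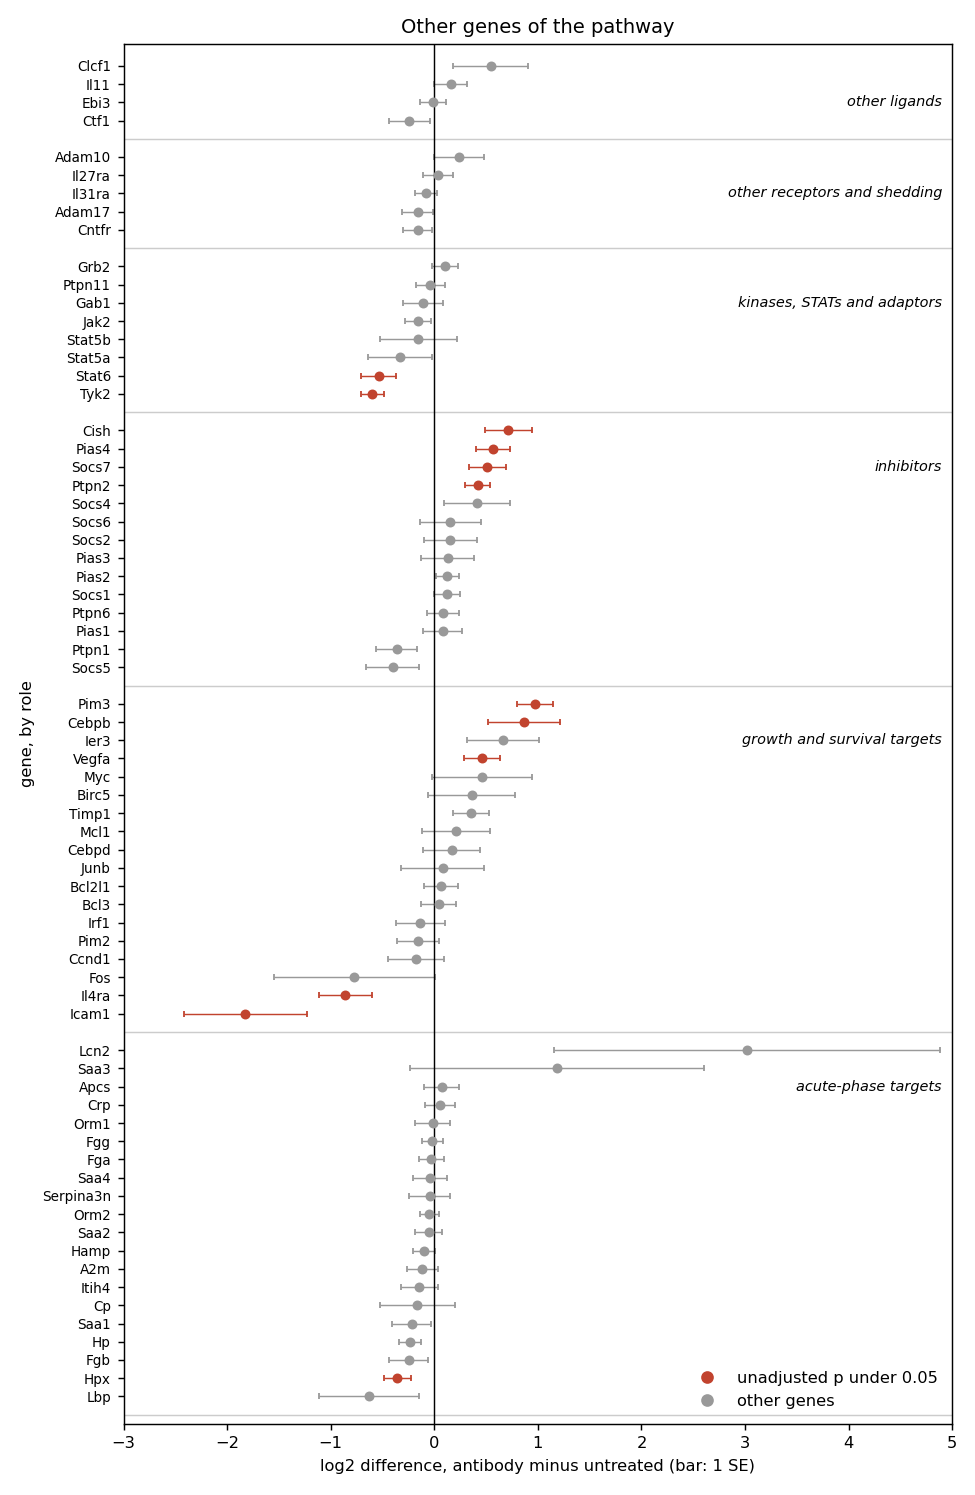
Log2 difference between antibody-treated and untreated cells for the 69 other pathway genes, ordered within their role, with bars of 1 SE from limma; red marks an unadjusted p under 0.05. The red points are 7 genes above 0 and 5 below it, and Lcn2, at 3.02, has an SE of 1.86.

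Of 20 acute-phase targets, 0 were higher and 1 was lower, beside 4.68% higher and 7.92% lower of all genes measured. The 1 was Hpx (hemopexin), at -0.36 (SE 0.13, unadjusted p = 0.0260, adjusted p = 0.343 in limma), with values of at most 4.46 on all arrays. It did not pass without the antibody array of experiment 2 (-0.26), the untreated array of experiment 1 (-0.32) or 3 (-0.29), or experiment 3 (-0.31). Hp (haptoglobin) had -0.24 (SE 0.11). Lcn2 (lipocalin 2), an iron-binding protein, had the largest difference of the 69 genes without passing. It had 8.20, 10.45 and 11.37 in antibody-treated, 4.55, 6.07 and 10.41 in HGF/SF1-treated and 4.21, 6.35 and 10.40 in untreated cells. The antibody array was the highest in each experiment, and the untreated array of experiment 3 was above 1 of the 3 antibody arrays. The difference was 3.02 (SE 1.86, unadjusted p = 0.142 in limma, and 0.00249 with the experiment as a block, where the adjusted p was 0.0896). Saa3 (serum amyloid A3), named after its values were seen, had 6.34, 8.66 and 9.17 in antibody-treated, 5.59, 6.01 and 9.52 in HGF/SF1-treated and 5.11, 5.91 and 9.60 in untreated cells. Its antibody array was the highest in experiments 1 and 2 and the lowest in experiment 3. The plasma proteins Fga, Fgb, Fgg, Crp and Orm1 had values of at most 4.22 on all arrays. Other plasma proteins of the list were bright, Lbp (lipopolysaccharide-binding protein) with 8.42 to 10.28 and Cp with 8.66 to 10.22. Their differences after the antibody were -0.63 (SE 0.48) and -0.16 (SE 0.36), and neither passed. These 7 genes were picked after their values were seen.

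Between antibody and HGF/SF1, 6 of the 69 genes were higher after the antibody (Cish, Ptpn2, Pias4, Socs7, Pim3 and Birc5) and 4 lower (Tyk2, Stat6, Icam1 and Il4ra), which is 14.5%, beside 14.1% of all genes measured (5.19% higher and 8.96% lower). Tyk2, Stat6 and Pim3 passed under all alternatives tried, and Ptpn2 under all but the mean of its probe sets (0.16). Pias4 did not pass under 13 alternatives, with differences of 0.25 to 0.39, among them the one with the experiment as a block (unadjusted p = 0.0525 in limma). The rest did not pass under some alternatives, where Cish differed by 0.43 to 0.63, Socs7 by 0.32 to 0.47, Birc5 by 0.74 to 1.14, Icam1 by -1.36 to -1.31 and Il4ra by -0.69 to -0.57. When the model held the experiment, 10 rather than 6 were higher and 7 rather than 4 lower, beside 20.3% of genes. Pias4 was no longer among them. In that fit 2 passed an adjusted p under 0.05 in limma, Pim3 (0.0417) and Cebpb (0.0491), beside 242 of all 22626 probe sets.

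Markers of other cells that could respond to or make these cytokines were read on the same arrays. At an unadjusted p under 0.05 in limma, 2 of 10 macrophage and leukocyte genes were higher after the antibody and 0 lower. Of all 12393 genes measured, 4.68% were higher and 7.92% lower. The 2 were Cd68, a lysosomal glycoprotein, by 2.60 (SE 0.65) and the integrin subunit Itgb2 by 1.44 (SE 0.56). How far these 2 depend on single arrays was not examined. The mean of the 10 was 5.47 to 5.51 in antibody-treated, 5.15 to 5.44 in HGF/SF1-treated and 5.03 to 5.15 in untreated cells. The defining leukocyte gene Ptprc lay between 3.02 and 3.38 on all arrays, and Adgre1, Itgam and Tyrobp did not exceed 4.42. Cd14, a coreceptor for lipopolysaccharide, was bright, with 12.34, 11.33 and 10.52 in antibody-treated, 11.77, 12.09 and 11.68 in HGF/SF1-treated and 11.95, 12.18 and 11.68 in untreated cells. Its difference between antibody-treated and untreated cells was -0.54 (SE 0.39), with 0.39, -0.85 and -1.16 in the experiments, and did not pass. Cd68 was 6.66, 8.15 and 9.47 in antibody-treated, 5.77, 5.43 and 6.49 in HGF/SF1-treated and 5.12, 5.20 and 6.17 in untreated cells. Of the fibroblast and endothelial lists, 0 genes were called, beside 12.6% of all genes measured. Whether these markers bear on the values of Il6, Lif, Socs3 or Pim1 was not tested.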

How the data were processed

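RNA of MLP29 cells was hybridised by the authors to 9 Affymetrix Mouse430A_2 arrays and processed together in affylmGUI with rma background correction. What the authors deposited is 1 log2 value for each probe set and array. The normalization between arrays and the summary method are not given in the sources used here, and the deposited values were used unchanged. Of 22690 probe sets, 64 controls were left out. The annotation names 1 gene for 20380, several for 691 and none for 1555, and 20359 matched a RefSeq symbol. A gene was taken by its brightest probe set, and all probe sets of the members are given. A mean per condition was fitted over all 9 arrays with limma 3.58.1 in R 4.3.3 (6 residual degrees of freedom, prior 2.39). Tests were two-sided, and Benjamini-Hochberg adjustment ran over 22626 probe sets. The fit was tested on simulated data with planted differences and no effect of the experiment. That check cannot show how the fit without a block behaves on arrays that share an experiment. The labels end in a number shared by 1 array of each condition, and they do not say what it means. The paper states separate experiments that each held every condition. Together these set the pairing. Arrays of 1 experiment deviated from their condition means with r from 0.0958 to 0.591, and others from -0.484 to 0.0308. Whether the samples of a condition came from separate cultures beyond that is not stated. The p-values thus measure the spread between these experiments on 1 cell line, part of which may be technical.

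The members and the lists were chosen with earlier results of these data known. Named genes are all members, in each role of the pathway list up to 3 genes with the lowest p after the antibody and 1 after HGF/SF1, and the 5 genes most like Il6 and Stat3. Named outside this rule were Socs1, Socs7, Pim2, Cebpb, Vegfa, Saa3, Fga, Fgb, Fgg, Crp, Orm1, Lbp and Cp, and the cell type markers. Alternatives were the experiment as a fixed or random block, median centring, quantile normalization, bright probe sets only, 2 conditions only, a variance trend, the mean of a gene's probe sets, and leaving out each array or experiment. Promoter windows came from RefSeq (GRCm38.p6).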

Additional observations from a re-analysis of the deposited data

How the results depend on the processing

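With the experiment as a replicate block, limma called 2 member probe sets after HGF/SF1 in place of 0, and a random block for the experiment called 1. Over all 22626 probe sets these 2 fits called 411 and 374 in place of 192. In the same fit with the replicate block, 1 of the other pathway genes was called after HGF/SF1 in place of 0, and 17 between antibody and HGF/SF1 in place of 10. The block moved no other of these counts by more than 1.5 times. Leaving out single arrays or experiments gave 0 to 7 member probe sets for antibody against untreated cells (5 with all arrays), 0 to 1 for HGF/SF1 against untreated cells and 0 to 6 for antibody against HGF/SF1 (5 with all). Over all 22626 probe sets these ranges were 912 to 4014, 123 to 366 and 1257 to 4114. For the other pathway genes these ranges were 4 to 18 (12 with all), 0 to 2 and 4 to 18 (10 with all). For the antibody comparisons, 0 members were called without experiment 2, and the 7 and the 18 those without the antibody array of experiment 1. The pathway count for antibody against untreated cells was 7 without the antibody array of experiment 3 or without experiment 3, and 4 without experiment 2. With arrays centred on their medians, 50.1% of all called probe sets were higher in antibody-treated than in untreated cells and 85.3% in HGF/SF1-treated than in untreated cells, against 38.3% and 58.9% with the values as deposited, and the median of all antibody differences moved to 0.06. The cause was not tested for any of these changes. No difference of a named gene that had passed the unadjusted threshold changed sign under any of the alternatives. Lifr, 1421239_at of Il6st and the dimmest probe sets of Lif, Il6ra and Stat3 lay below the median of every array. So did 1460295_s_at of Il6st and the dimmer Osmr probe set on all but the untreated array of experiment 3. The brighter Il6ra probe set did so on all but the HGF/SF1 array of experiment 1. The brighter Osmr probe set lay below the median on the untreated and HGF/SF1 arrays of experiment 1. Il6 lay below the median on the untreated and HGF/SF1 arrays of experiments 1 and 2. Without detection calls, the signal of these over background is unknown. Only 3 arrays per condition limit the precision.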
